A study of Mus musculus with 4 samples.

Results

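Tuft cells of the mouse colon were followed here through 9 marker genes, *Dclk1*, *Trpm5*, *Pou2f3*, *Gfi1b*, *Il25*, *Avil*, *Ptgs1*, *Alox5ap* and *Rgs13*. Probes were taken by the gene name in the array files, which gave 16 of 41174 gene probes on the Agilent whole mouse genome array. *Dclk1* had 7 probes, *Trpm5* had 2, and the other 7 genes had 1 each. In the sorted epithelial cells, 8 of the 9 markers could be measured and all 8 were lower in Axin2+ than in Axin2- cells on both arrays, 5 of them past 1.5-fold, as were 6.97% of all genes measured in that direction. *Il25* is one of the 8 but passed the filter on dim signals through its Axin2- channels alone, so its direction was set by the filter. In the colon of *Rspo3* KO mice, 4 of the 9 could be measured and none was called against control mice, where 0.222% of all genes measured were.

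Tuft cells are rare chemosensory cells of the gut epithelium with a brush of long microvilli. They sense luminal metabolites and parasites through a taste-type receptor chain that ends in the cation channel Trpm5, and answer with interleukin 25, leukotrienes and prostaglandins, which reach innate lymphoid cells and other cells of the mucosa. Their formation depends on the POU factor Pou2f3, and *Dclk1* is the marker most often used to count them.

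The study asked how the loss of stromal Rspo3, a secreted enhancer of Wnt signaling, affects the colon, and how Axin2+ epithelial cells differ from the rest of the epithelium. *Rspo3* KO mice were male *Myh11CreErt2/Rspo3* fl/fl animals of 6 to 8 weeks on a C57BL/6 background, in which Cre is driven in Myh11-expressing smooth muscle and myofibroblasts and not in the epithelium. Controls were Rspo3+/+ littermates that carry the same Cre, and both received tamoxifen (4 mg per 25 g body weight in 200 µl corn oil) 2 weeks before RNA was taken from the distal colon as labelled. Each of 2 KO mice was hybridised against 1 control mouse, with the dyes reversed between the 2 arrays, so n = 2 pairs. Axin2+ and Axin2- cells were tdTomato-positive and tdTomato-negative cells, sorted on DAPI and the epithelial antigen ESA from *Axin2CreErt2/Rosa26-tdTomato* C57BL/6 mice of the same age 24 h after tamoxifen. Cells of 3 mice were pooled, and the same pair of pools was hybridised on 2 arrays with reversed dyes. These 2 arrays are 1 biological replicate, so their differences carry no p-value and their spread is that of the hybridisation.

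Between 53.1% and 60.3% of gene spots were well above background per channel, and across genes, which are not independent replicates, the 2 arrays of an experiment correlated with Pearson's r = 0.92 in the sorted cells and 0.03 in the KO mice. *Axin2* itself had log2 ratios of 1.35 and 1.30 in Axin2+ over Axin2- cells, higher as labelled. The *Rspo3* probe was not well above background on both KO arrays, with log2 ratios of 0.10 and 0.17, and so does not check the deletion.

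Of the 16 probes, 5 span an intron in the array files, and 3 of these are printed below to show which stretch of the message was read. The first belongs to *Dclk1*, a microtubule-associated kinase, and crosses a junction on chromosome 3 (chr3:55320895-55337537 of mm9, plus strand). The second belongs to *Pou2f3* (chr9:42954951-42984381, minus strand) and the third to *Avil*, an actin-bundling protein of the tuft (chr10:126453541-126454065, plus strand). Each is 60 bases long and is printed 5′ to 3′ as in the array files.
*Dclk1* junction probe: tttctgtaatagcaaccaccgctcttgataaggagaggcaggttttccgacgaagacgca
*Pou2f3* junction probe: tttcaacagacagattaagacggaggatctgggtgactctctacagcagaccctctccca
*Avil* junction probe: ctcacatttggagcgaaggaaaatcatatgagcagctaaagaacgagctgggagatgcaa
The *Avil* probe was well above background in all 4 sorted-cell channels. For *Pou2f3*, no channel of either experiment gave a signal well above background, and the *Dclk1* probe printed here reached it in 1 channel, Axin2- on array 2. Another *Dclk1* probe that spans an intron (chr3:55184765-55254910) was well above background in all 4 sorted-cell channels.

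The bases upstream of the transcription start were read from RefSeq's table of GRCm38.p6, which held 7 promoters of 6 of the 9 markers. They were searched on both strands for the octamer bound by POU factors (ATGCAAAT), the Tcf/Lef site of the Wnt pathway (CTTTGAT) and the Gfi core (AAATCAC), over the 250 bases before the start. Of the 7 promoters, 1 held a match, a Tcf/Lef site upstream of the longer *Dclk1* transcript, 153 bases before the start. Among 32851 promoters of the same length, 3.21% held that motif, 1.6% the octamer and 2.75% the Gfi core. A match describes letters and not binding, and the absence of a match says only that these letters are not in the window. The *Dclk1* window (chr3:55242114-55242363, plus strand) is shown with the match in capitals, beside that of *Trpm5* (chr7:143094643-143094892, minus strand), the marker with the lowest mean log2 ratio in Axin2+ cells under the background correction used here.
*Dclk1* upstream window: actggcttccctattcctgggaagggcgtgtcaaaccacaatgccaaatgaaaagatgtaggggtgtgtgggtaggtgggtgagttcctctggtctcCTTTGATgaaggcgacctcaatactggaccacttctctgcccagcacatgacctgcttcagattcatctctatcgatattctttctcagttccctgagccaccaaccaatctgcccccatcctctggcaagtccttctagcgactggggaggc
*Trpm5* upstream window: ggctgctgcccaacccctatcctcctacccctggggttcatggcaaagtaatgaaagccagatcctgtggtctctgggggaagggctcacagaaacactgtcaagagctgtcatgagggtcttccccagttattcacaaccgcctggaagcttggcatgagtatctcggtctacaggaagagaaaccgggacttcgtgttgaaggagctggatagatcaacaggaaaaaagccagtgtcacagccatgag

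In the sorted epithelium the measured markers were lower in Axin2+ cells, among them a transcription factor, a channel, a kinase, an actin bundler and genes of the eicosanoid pathway. With a filter that asks for signal in both channels of both arrays, *Gfi1b* and *Il25* dropped out, and 6 markers were left with 5 past 1.5-fold. Over the 8 measured markers the median log2 ratio was -1.09 on array 1 and -1.01 on array 2, against a median of -0.01 over all 15777 genes measured. The 5 past 1.5-fold were *Trpm5*, *Ptgs1*, *Dclk1*, *Rgs13* and *Alox5ap*, and no marker was past it in the other direction. All 5 were also past 2-fold. Of all genes measured, 6.97% were lower and 7.84% higher past 1.5-fold, 2.54% were lower past 2-fold, and 41.8% had a ratio under 0 on each array. Ratios here were computed after a background correction that adds 50 to every signal, which pulls the ratios of dim probes toward 0, and the markers were dim. With the log ratios of the feature extraction software, which adds no such offset, all 8 measured markers were past 1.5-fold, as were 15.4% of all genes in the lower direction, and the folds were larger, from 2.97-fold for *Alox5ap* to 10.2-fold for *Ptgs1*.

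**Figure D1:**
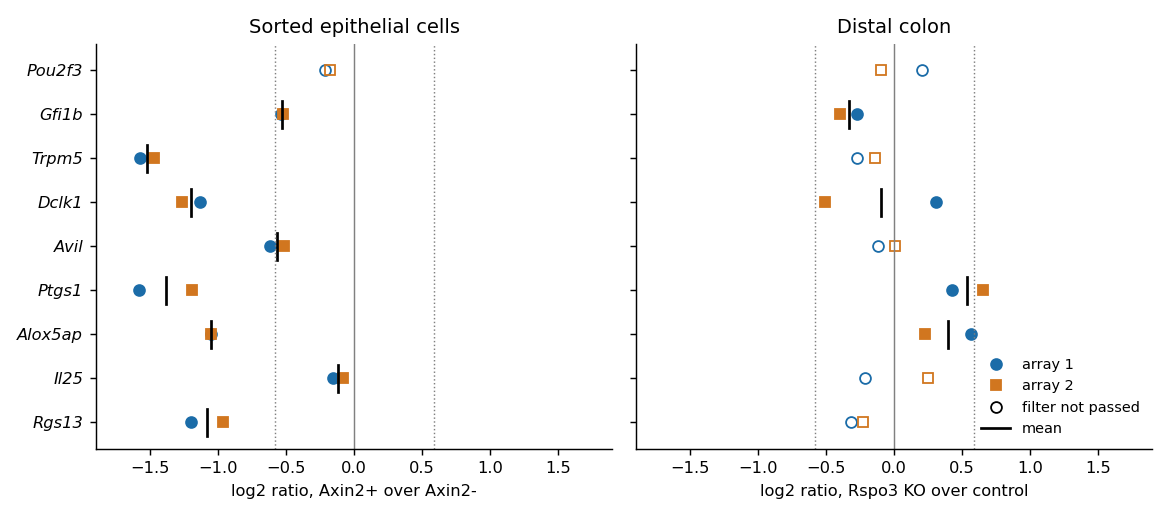
Log2 ratios of the 9 tuft cell markers on each array, Axin2+ over Axin2- cells on the left and *Rspo3* KO over control on the right. Filled points passed the filter on dim probes, open points did not, black bars are means and dotted lines mark 1.5-fold. All 8 measured markers lie left of 0 on both sorted-cell arrays, while in the colon 2 lie right of 0, 1 lies left and *Dclk1* lies on opposite sides.

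Of the transcription factors, only *Gfi1b* could be measured. *Pou2f3*, the master regulator of the lineage, had normalised log2 levels of 5.93 and 6.05 in Axin2+ cells and of 6.15 and 6.23 in Axin2- cells, arrays 1 and 2 in that order. Its 4 signals were not well above background, so its log2 ratios of -0.22 and -0.18 were not used. *Gfi1b*, a zinc-finger repressor also used by blood cells, had levels of 5.92 and 6.28 in Axin2+ cells and of 6.46 and 6.80 in Axin2- cells. The log2 ratio was -0.53 ± 0.01 (SD over the 2 arrays) or 1.44-fold lower, short of 1.5-fold. The *Gfi1b* probe lies on chromosome 2 (chr2:28464982-28465041 of mm9, minus strand) and was above background in Axin2+ cells on array 1 only.

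*Trpm5*, the channel that depolarises tuft cells after taste-type signaling, had the lowest mean ratio of the 8 measured markers with the offset of 50. Its levels were 6.81 and 7.25 in Axin2+ cells against 8.39 and 8.73 in Axin2- cells, which is a log2 ratio of -1.53 ± 0.07 or 2.88-fold lower. Only 170 of the 15777 genes measured had a lower mean ratio. The probe is on chromosome 7 (chr7:150257715-150257774, minus strand). A further *Trpm5* probe, which crosses an intron (chr7:150266961-150267130), stayed near background in every channel of both experiments.

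*Dclk1* was lower to a like extent with each of its usable probes. The brightest, at the far end of the gene (chr3:55342815-55342874, plus strand), had levels of 6.43 and 6.70 in Axin2+ cells and of 7.56 and 7.97 in Axin2- cells, a log2 ratio of -1.20 ± 0.09 or 2.3-fold lower. Of the 7 probes, 4 passed the filter, all 4 were lower on both arrays, and their mean log2 ratios ran from -1.28 to -1.06. For 1 of the 4 (chr3:55340456-55340515), 2.09-fold lower, neither array had an Axin2+ signal well above background. That probe passed the filter through the Axin2- channels alone, so its direction was set by the filter. *Avil*, the actin bundler whose junction probe is printed above, had levels of 6.28 and 6.65 in Axin2+ cells and of 6.89 and 7.17 in Axin2- cells. That is a log2 ratio of -0.57 ± 0.07 or 1.48-fold, just short of 1.5-fold.

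**Figure D2:**
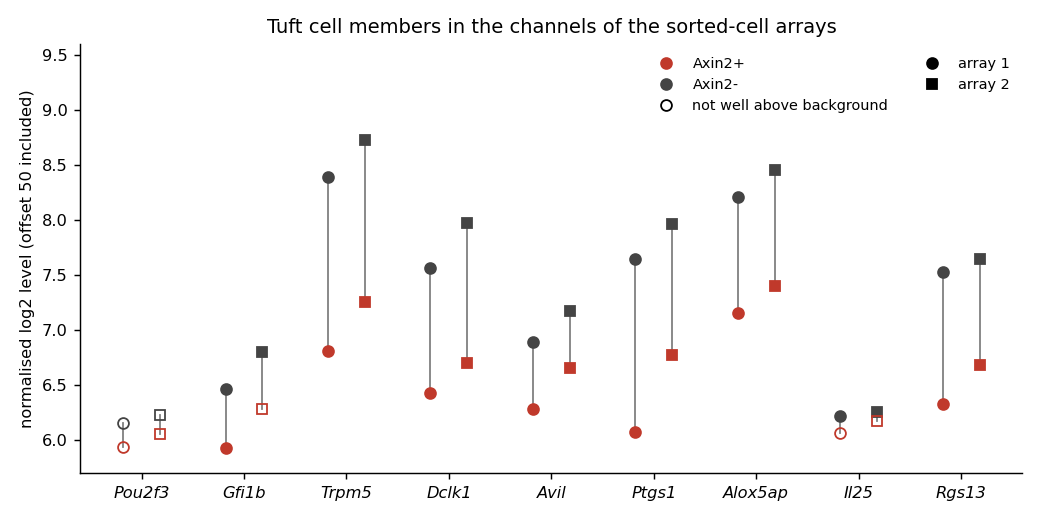
Normalised log2 level of each marker in the 4 channels of the sorted-cell arrays, with the 2 channels of an array joined by a line. Circles are array 1 and squares array 2, red is Axin2+ and grey Axin2-, and open symbols were not well above background. The Axin2- symbol is the upper of the pair for every marker, with *Pou2f3* and *Il25* close to the bottom of the measurable range.

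The markers of the eicosanoid pathway were lower as well. *Ptgs1*, the cyclooxygenase that makes prostaglandin H2, had levels of 6.07 and 6.77 in Axin2+ cells and of 7.65 and 7.96 in Axin2- cells. Its log2 ratio, -1.39 ± 0.27 or 2.61-fold lower, varied most between the arrays. *Alox5ap*, which presents arachidonic acid to 5-lipoxygenase for leukotriene synthesis, had levels of 7.15 and 7.40 against 8.21 and 8.45, and its log2 ratios of -1.05 and -1.06 were the closest pair of all. The probes lie on chromosome 2 (chr2:36107644-36107703, plus strand) for *Ptgs1* and on chromosome 5 (chr5:150099347-150099406, plus strand) for *Alox5ap*.

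*Rgs13*, a regulator of G-protein signaling that is also found in B cells and mast cells, had levels of 6.33 and 6.68 in Axin2+ cells and of 7.52 and 7.65 in Axin2- cells, a log2 ratio of -1.08 ± 0.17 or 2.11-fold lower. *Il25*, the cytokine by which tuft cells activate innate lymphoid cells, was above background in Axin2- cells on both arrays and in Axin2+ cells on neither. Its levels were 6.06 and 6.17 against 6.22 and 6.25, or 1.09-fold lower by the mean ratio. The filter set that direction. In the order of the log2 ratios with the offset of 50, *Trpm5*, *Ptgs1* and *Dclk1* were lowest, followed by *Rgs13* and *Alox5ap*, then *Avil* and *Gfi1b*, and last *Il25*. The spread of *Ptgs1* reaches both of its neighbours in that order, *Rgs13* and *Alox5ap* differ by less than the spread of *Rgs13*, and *Avil* and *Gfi1b* differ by less than the spread of *Avil*. The order depends on the background correction. *Ptgs1* was below *Trpm5* without background correction (-1.66 and -1.65) and with an offset of 16 (-1.99 and -1.91). With the software's log ratios the order was *Ptgs1* (-3.34), *Rgs13* (-2.68), *Dclk1* (-2.54), *Trpm5* (-2.31), *Gfi1b* (-2.05), *Il25* (-1.61), *Avil* (-1.59) and *Alox5ap* (-1.57).

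Further genes of the tuft cell were taken from lists that do not contain the 9 markers. Of 51 such genes, 41 were measured in the sorted cells, 21 were lower and 1 was higher past 1.5-fold, and 34 were lower on both arrays. Their median log2 ratio was -0.60, and their mean ratios ran from -1.66 to 0.59. Among all genes measured, 6.97% were lower past 1.5-fold.

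Among the other transcription factors, all 4 were lower on both arrays. The Ets factor *Spib* had log2 ratios of -0.92 and -0.97 and the homeobox gene *Hmx3* of -0.95 and -0.81, and both were past 1.5-fold. *Hmx2* and *Etv1* had mean log2 ratios of -0.58 and -0.43. In the taste chain, 3 of 9 genes were measured. *Gng13*, the gamma subunit of the taste G protein, was past 1.5-fold at -0.70 and -0.78, whereas the calcium channel *Itpr3* and the sweet and umami receptor subunit *Tas1r3*, at means of -0.16 and -0.14, were near 0.

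The other eicosanoid enzymes did not share a direction. *Alox5*, the 5-lipoxygenase that works with Alox5ap, had log2 ratios of -1.69 and -1.45, a 2.97-fold difference. *Ltc4s*, which makes leukotriene C4, was lower at -0.54 and -0.65. *Hpgds*, the hematopoietic prostaglandin D synthase, was higher at 0.39 and 0.80, and the phospholipase *Pla2g4a*, which releases arachidonic acid, was higher at 0.60 and 0.52 without passing 1.5-fold. The 2 enzymes of the leukotriene branch were thus lower and the prostaglandin D synthase higher in Axin2+ cells.

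The type 2 cytokine circuit, by which interleukin 13 from lymphoid cells expands tuft cells, was represented by 5 of 6 genes. The receptor chains *Il13ra1* (-1.01 and -0.68) and *Il4ra* (-0.59 and -0.70) were past 1.5-fold. The interleukin 25 receptor *Il17rb* had a mean of -0.39, *Il13* of -0.14, and *Stat6* went opposite ways on the 2 arrays at 0.12 and -0.47.

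Of 28 further genes from published tuft cell signatures, 25 were measured, and 14 were lower past 1.5-fold and none higher. The tubulin *Tuba1a* had log2 ratios of -1.75 and -1.56 and the inhibitory receptor *Cd300lf* of -1.40 and -1.47. The actin bundler *Espn* (-1.36 and -1.50), the kinase *Matk* (-1.35 and -1.44), *Lrmp* (-1.17 and -1.33) and the adapter *Fyb* (-1.15 and -1.04) followed. Others among the 14 were *Ly6g6f*, *Siglecf*, *Inpp5d*, *Sh2d7*, *Limd2*, *Sh2d6* and *Kctd12*, with means between -0.86 and -0.63. At the other end, the keratin *Krt18* had a mean of 0.39 and *Cd24a* of 0.01, and both are expressed well beyond tuft cells.

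Some of these genes are also expressed by leukocytes, and part of the leukocyte markers gave signal in the cells sorted on ESA, *Cd3e* and *Lck* of T cells and *Cd79a* of B cells among them in all 4 channels. Of 6 macrophage markers, 4 were measured with a median log2 ratio of -0.09 and none past 1.5-fold. Of 6 B cell markers, 4 were measured with a median of -0.08. Of 6 T cell markers, 3 were measured with a median of -0.24, and neither list had a marker past 1.5-fold. These ratios include the offset, which shrinks the ratios of dim probes. With the software's log ratios, *Cd3d* (-2.67), *Cd79b* (-2.01) and *C1qa* (-1.84) were lowest of these markers. *C1qa* passed the filter through its Axin2- channels alone, which set its direction. *Cd68* (0.59) and *Lck* (0.39) were higher in Axin2+ cells, and the other measured ones lay between -0.49 and -0.17. The part of these leukocytes in the result was not tested. Of 8 mast cell markers, 2 passed the filter, and in these ESA-sorted cells the chymase *Cma1* was lower past 1.5-fold at -0.99 and -0.98, while *Mcpt4* and *Cpa3* were not measured. Summed over all 8 mast cell markers, the linear levels were 580 and 604 in Axin2+ cells and 690 and 746 in Axin2- cells, and the part of mast cells in the result was not tested.

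Markers of other differentiated cells of the epithelium were also lower in Axin2+ cells, except for the goblet cell marker *Muc2*. All 5 surface colonocyte markers (*Krt20*, *Aqp8*, *Car4*, *Slc26a3* and *Car1*) were lower past 1.5-fold, between -3.12 and -1.89 with a median log2 ratio of -2.89. So were 6 of 7 enteroendocrine markers (*Insl5*, *Chga*, *Gcg*, *Chgb*, *Pyy* and *Cck*, with *Neurod1* short of it), between -3.76 and -0.38 with a median of -2.11. Of 6 goblet cell markers, *Clca1*, *Fcgbp* and *Tff3* were, *Spdef* (-0.41) and *Agr2* (-0.23) fell short, and *Muc2* was higher at 0.30 and 0.34. The goblet cell list ran from -2.86 to 0.32 with a median of -0.79, against -1.07 for the tuft cell markers. General epithelial markers had a median of -0.27, with *Krt8* and *Krt19* lower past 1.5-fold and *Epcam* at 0.04 and 0.03. Of stromal and other markers, 1 of 5 fibroblast, 3 of 6 smooth muscle, 2 of 4 platelet and 2 of 7 neuron and glia markers were measured, and of these only *Uchl1*, a ubiquitin hydrolase of neurons, was past 1.5-fold, at -0.56 and -0.71. In pooled cells, fewer tuft cells and less RNA per tuft cell cannot be told apart.

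**Figure D3:**
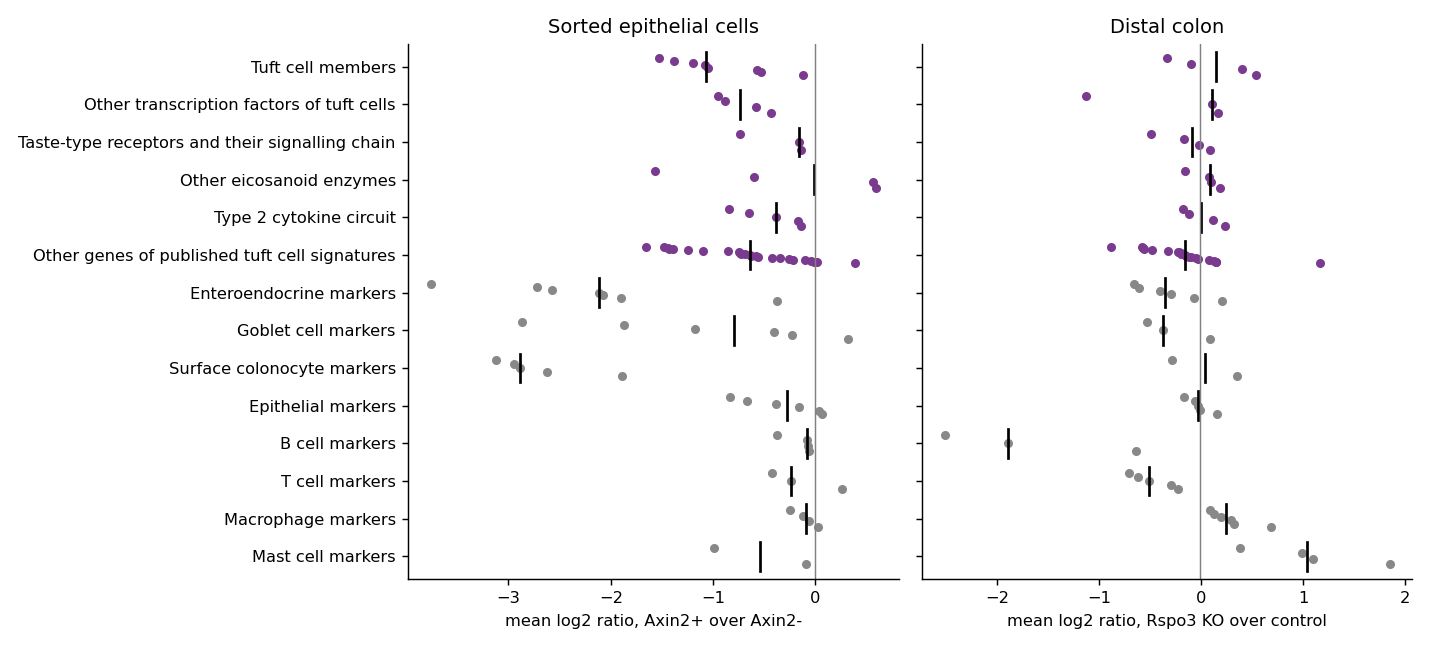
Mean log2 ratio of each measured gene, grouped by list, with the list median as a black bar and the median of all genes as a grey line. Purple points are tuft cell genes and grey points are markers of other cells. In the sorted cells the median of the tuft cell markers, -1.07, lies between that of the enteroendocrine markers, -2.11, and that of the epithelial markers, -0.27, and in the colon B cell and mast cell markers lie on opposite sides of 0.

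In the colon of *Rspo3* KO mice the tuft cell markers showed no common direction. Of the 9, 4 passed the filter, namely *Dclk1*, *Gfi1b*, *Ptgs1* and *Alox5ap*, and none was called by limma at an adjusted p of 0.05, where 0.222% of the 15293 genes measured were called. At an unadjusted p under 0.05, 1 of the 4 (*Ptgs1*) and 4.58% of all genes were found. None of the 4 was past 1.5-fold alike on both arrays, where 4.3% of all genes were. The median log2 ratio of the 4 was 0.36 in the first pair of mice and -0.09 in the second. RNA here came from unsorted tissue of the distal colon, so stromal, muscle, nerve and blood cells contributed to each value.

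*Ptgs1* was well above background in all 4 mice, with normalised log2 levels of 11.54 and 11.48 in the KO mice and of 11.12 and 10.83 in the controls. KO was the higher in both pairs, as for 20.3% of all genes measured. Its log2 ratio was 0.54, with a 95% interval of 0.00015 to 1.07, or 1.45-fold higher (limma adjusted p = 0.9997). *Alox5ap* had levels of 10.37 and 9.64 in the KO mice against 9.81 and 9.42 in the controls. KO was the higher of each pair, but the ranges of the groups overlapped, and the log2 ratio of 0.40 had a 95% interval of -0.15 to 0.94 (limma adjusted p = 0.9997).

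Cells other than tuft cells express both genes, mast cells and macrophages among them. Of 8 mast cell markers, 4 were measured, with ratios above 0 in both pairs of mice (median log2 ratio 1.04), and *Cma1* alone passed the test at 1.84 and 1.86 (limma adjusted p = 0.028). *Mcpt4* had ratios of 1.12 and 1.07 and the carboxypeptidase *Cpa3* of 0.85 and 1.12. *Cpa3* and *Fcer1a* passed the filter through the KO channels alone, so their direction was set by the filter. Over all 8 mast cell markers the summed linear level was 2160 and 1563 in the KO mice against 1011 and 758 in the controls. Of 6 macrophage markers, 5 had ratios above 0 on both arrays, with a median of 0.24, none called by limma, and summed levels of 13810 and 11256 against 11764 and 8613. The part of either cell type in the ratios of *Ptgs1* and *Alox5ap* was not tested.

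*Dclk1* went opposite ways in the 2 pairs of mice. The brightest probe had levels of 8.16 and 7.85 in the KO mice and of 7.85 and 8.36 in the controls, so the groups overlapped, and the log2 ratios were 0.31 and -0.51. The mean, -0.10, had a 95% interval of -0.73 to 0.53 (limma adjusted p = 0.9997). Of the 7 probes 5 passed the filter, all 5 were higher in KO on array 1, and 4 of them were lower on array 2. The Cy5 channel, which held the KO mouse on array 1 and the control mouse on array 2, was thus the brighter one for those 4 on both arrays, and dye and mouse pair cannot be told apart.

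**Figure D4:**
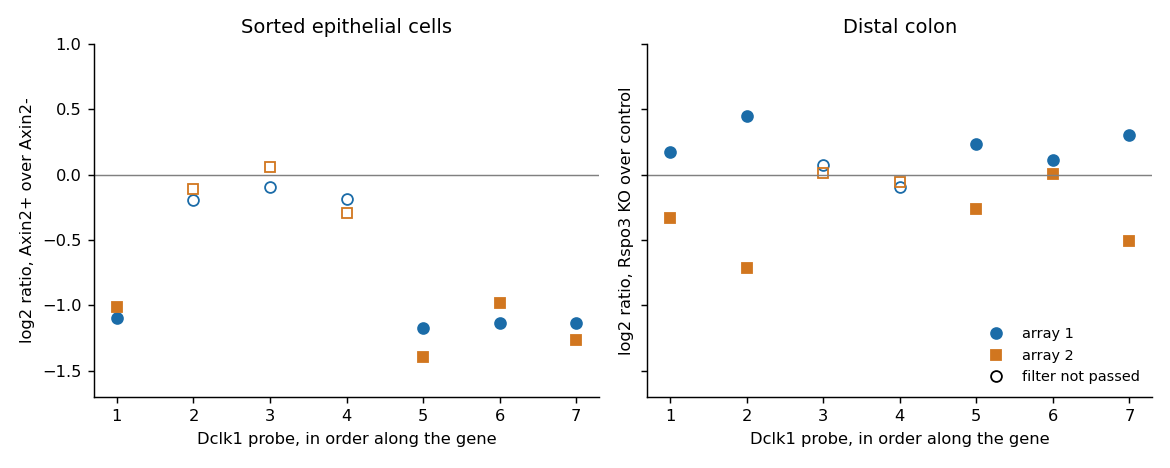
Log2 ratios of the 7 *Dclk1* probes, numbered along the gene, on array 1 (blue circles) and array 2 (orange squares). Filled points passed the filter on dim probes. In sorted cells the 4 usable probes lie together between -1.40 and -0.99, whereas in the colon the 2 arrays separate most at the second probe, with 0.45 on array 1 and -0.72 on array 2.

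The probe that is second along the gene differed between the 2 materials. It (chr3:55271688-55271747, plus strand) is assigned by the array files to other transcripts of *Dclk1* than the probes at the gene's far end. It was well above background in all 4 channels of the KO arrays, but in the sorted epithelium in 1 channel only, Axin2- on array 2. Its log2 ratios of 0.45 and -0.72 in the KO mice were the widest apart of the 7. *Dclk1* is also a gene of neurons, and of the 6 measured markers of enteric neurons and glia, 5 went opposite ways in the 2 pairs, with *Uchl1* at 0.48 and -0.52 and *Elavl4* at 0.50 and -0.13. Over all 7 such markers the summed linear level was 12673 and 7786 in the KO mice and 9601 and 9914 in the controls. Their part in the *Dclk1* values was not tested.

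*Gfi1b* was the measured marker with the lowest ratio. Its levels were 6.71 and 6.36 in the KO mice and 6.98 and 6.76 in the controls. It was well above background in both controls and in neither KO mouse, so it passed the filter through the control channels alone, which set its direction, and it drops out with the filter on both channels. The log2 ratio was -0.34 or 1.26-fold lower, with a 95% interval of -0.87 to 0.20 (limma adjusted p = 0.9997). With the software's log ratios the values were -1.71 and -1.85, and *Gfi1b* passed the test (limma adjusted p = 0.0406), where 0.772% of all genes did.

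The other 5 markers did not pass the filter. *Trpm5* and *Rgs13* were well above background in 1 channel each, the control mouse of array 2. Their log2 ratios, -0.27 and -0.14 for *Trpm5* and -0.32 and -0.23 for *Rgs13*, were below 0 on both arrays. With the software's log ratios they were -2.66 and -1.10 for *Trpm5*, and -2.04 and -1.63 for *Rgs13*. *Avil* was above background on array 2 only, at -0.12 and 0.01, and *Il25* and *Pou2f3* in no channel.

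Of 6 B cell markers, 3 were measured in the colon, with ratios below 0 in both pairs of mice (median log2 ratio -1.89), and *Ms4a1*, which encodes the B cell antigen CD20, passed the test at -2.75 and -2.27 (limma adjusted p = 0.0154). Over all 6 B cell markers the summed linear level was 889 and 913 in the KO mice and 3856 and 2183 in the controls. *Rgs13* and *Spib* are both expressed in B cells, and the part of B cells in their ratios was not tested.

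Of the 51 further tuft cell genes, 36 were measured in the colon. None was called by limma at an adjusted p of 0.05, where 0.222% of all genes were. At an unadjusted p under 0.05 there were 5 of the 36, and 4.58% of all genes. Their median log2 ratio was -0.12, against -0.01 over all genes, and 16 were lower and 5 higher on both arrays, where 23.8% and 20.3% of all genes were. *Spib* was lowest at -1.05 and -1.19 (limma adjusted p = 0.22) and *Hebp1*, a heme-binding protein, highest at 0.85 and 1.47 (limma adjusted p = 0.278). *Limd2* had ratios of -1.51 and -0.26, *Ptpn6*, a phosphatase of immune receptors, of -0.65 and -0.51, and the adapter *Fyb* of -0.15 and 0.45. In the taste chain *Gng13* had ratios of -0.75 and -0.24, *Plcb2* of -0.32 and -0.02, *Itpr3* a mean of -0.02 and *Tas1r3* of 0.09.

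No gene of the remaining lists was called by limma in the colon. The mean log2 ratios of the 4 eicosanoid enzymes lay between -0.16 for *Alox5* and 0.18 for *Hpgds*, with *Pla2g4a* at 0.08 and *Ltc4s* at 0.10. In the type 2 circuit *Stat6* had a mean of -0.18, *Il17rb* of -0.12, *Il4ra* of 0.12 and *Il13ra1* of 0.24. *Etv1* and *Hmx3* had means of 0.17 and 0.10. T cell markers had a median of -0.52 with *Lck* lowest at -0.71, epithelial markers a median of -0.04, enteroendocrine markers of -0.35 and goblet cell markers of -0.38. The 5 measured smooth muscle and 5 fibroblast markers had medians of 0.24 and 0.31, the 2 measured platelet markers of 0.04 and the 2 measured surface colonocyte markers of 0.03.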

How the data were processed

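All 4 arrays were used, in 2 experiments with groups taken from the labels. The authors ran Agilent's feature extraction software (version 11.5.1.1) and deposited for each spot the mean signal and background intensity of both dyes. They also deposited its log10 ratio of Cy5 over Cy3 and the error of that ratio, used here as a score for weighting, and a table of the same log10 ratios. The p-values in these files were not used. For the colon RNA, the extraction kit differs between labels and paper.

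From the intensities, background was corrected with limma (version 3.58.1, R version 4.3.3) by normexp with an offset of 50. Spots with a background outlier (66 and 6 on the KO arrays) were kept out of that fit. Levels and summed levels include the offset for every marker. Loess within the array normalised the log2 ratios, and control and outlier spots (510, 443, 131 and 124) were left out. The brightest probe stood for its gene, which was used if each array showed that probe well above background in 1 channel or both. KO ratios were tested against 0 with lmFit and eBayes, adjusted over 15293 genes (threshold 0.05), with 1 residual and 6.66 prior degrees of freedom. A sorted-cell difference was counted if its mean was past 1.5-fold and both arrays shared its sign. Of 41174 probes, 28473 were named by accession, 5512 by symbol and 356 by synonym through RefSeq (GRCm38.p6), and 6833 kept the file's name. Probe positions are mm9, per the file headers. A *Trpm5* probe (the intron-crossing one) carries that name in the KO files only. The markers and lists were chosen with earlier results of these data known. Every marker was named, with the called genes of each further list or else its 2 highest and 2 lowest. Some further genes are not reported here by name. The fit was tested on simulated data. Alternatives tried were other background corrections, centring, filters, the software's ratios, probe means, error weights, each array left out and other thresholds.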

Additional observations from a re-analysis of the deposited data

How the results depend on the processing

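All 94 alternative values of the 8 markers measured in the sorted cells stayed below 0. For *Il25*, which holds 12 of them, the filter set that direction. The median log2 ratio of the measured markers, -1.07, was -1.24 without background correction, -1.45 with an offset of 16 and -1.14 with the filter on both channels. It was -2.18 with the software's log ratios, with the series' table of values and with error weights. Leaving out an array gave -1.09 to -1.01. The 5 markers past 1.5-fold became 8 with the software's ratios, the series' table and error weights, 6 without background correction, 7 with an offset of 16, 7 with median centring, and 5 to 6 with an array left out. The 22 further genes past 1.5-fold became 8 past 2-fold, and 20 to 24 with an array left out. In the KO mice, no marker was called except *Gfi1b*, the 1 marker called with the software's ratios and the same 1 with the series' table. Of further genes, *Spib* was the 1 called with an offset of 16 and the 1 called with the software's ratios or the series' table, and 3 (*Spib*, *Limd2* and *Hebp1*) were past 1.5-fold. *Dclk1* turned from -0.10 to 0.31 without the second array and to -0.51 without the first, and the median of the 4 markers ran from -0.09 to 0.36. Each KO ratio already pairs a KO mouse with a control mouse on its array. No paired analysis was possible beyond this because the labels give no numbers that would pair the arrays further. The number of arrays limits the precision. Most markers lay within a few log2 units of the background, where the size of a ratio depends on the background correction.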
